A study of Mus musculus with 6 samples.

Results

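The 40 genes described here encode the proteins that carry glucose and lactate across the cell membrane, run glycolysis, and build and break down glycogen. They were listed by gene symbol from these pathways, with earlier results of these data known. They are 40 of the 55286 gene rows of a mouse RNA-seq count table. All 40 held enough reads to be among the 17400 genes tested. They fall into 14 isoforms that skeletal muscle is known to use (called muscle-type here), 11 counterpart isoforms of the same enzymes or transporters that other tissues use, 9 enzymes with no isoform pair in the list, and 6 regulators or branch enzymes. RNA sequencing was done on mouse embryonic fibroblasts (MEF), on muscle, and on cells made by direct reprogramming, named transdifferentiated cells here, with 2 libraries in each group. The comparisons ask which isoforms the reprogrammed cells hold and how their levels compare with fibroblasts and with muscle. The strain, the age of the animals, the source of the muscle, the reprogramming factor and the time after reprogramming are not given in the labels, nor are the cells from which the reprogrammed cells were made. The labels do not say whether the libraries of a group came from separate cultures or animals, so p-values measure only how far these samples differ, and that spread may be technical.

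The 6 libraries held between 16817033 and 24584951 counts. All 8 skeletal muscle markers, among them Acta1 and Ckm, were higher in muscle and in transdifferentiated cells than in MEF. Their summed level was 45190 to 48390 CPM (counts scaled to library size) in muscle, 36570 to 47960 CPM in transdifferentiated cells and 245 to 384 CPM in MEF. Of 8 fibroblast markers, 7 were lower in muscle and 4 in transdifferentiated cells than in MEF, and Col1a1, the most abundant of them, was not called in either comparison. Endothelial markers summed to 19.3 to 20.6 CPM in MEF, 0.122 to 1.83 CPM in muscle and 5.11 to 9.77 CPM in transdifferentiated cells. Adipocyte markers summed to 7.87 to 16.0 CPM, 0.0426 to 0.0608 CPM and 18.4 to 38.6 CPM in the same order. Fabp4 was the 1 of them tested, and no other held more than 1 count in a transdifferentiated library. Schwann and neural markers summed to 38.2 to 56.8 CPM, 10.2 to 11.3 CPM and 33.1 to 55.8 CPM. Each of 8 macrophage markers was above both other groups in transdifferentiated cells, with sums of 408.8 to 421.6 CPM, against 36.6 to 49.6 CPM in MEF and 1.82 to 3.62 CPM in muscle; C1qb was the most abundant. Of the 8, 3 were at 0 in muscle and none in the other groups. The part of these other cell types in the results below was not tested.

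Glycolysis splits glucose into pyruvate and yields ATP without oxygen, and glycogen is the glucose store that muscle draws on when it contracts. Several of its steps are catalysed by isoenzymes from separate genes, of which skeletal muscle uses a characteristic set, including the M-type phosphofructokinase, the muscle phosphoglycerate mutase, the beta enolase and the muscle glycogen phosphorylase. Inherited loss of several of these muscle isoenzymes causes a glycogen storage disease with exercise intolerance.

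The genes as a set took a larger share of the counts in muscle and in transdifferentiated cells than in MEF. They held 0.663% (Wilson interval at 95%, 0.659 to 0.666) and 0.594% (0.591 to 0.597) of all counts in the 2 MEF libraries. The shares were 1.54% (1.54 to 1.55) and 1.77% (1.76 to 1.78) in muscle and 1.12% (1.12 to 1.13) and 1.28% (1.27 to 1.28) in transdifferentiated cells. Both transdifferentiated libraries lay between MEF and muscle. These intervals cover counting error only, since reads without molecular identifiers are not independent molecules. In these bulk samples, fewer cells of a type and less RNA per cell cannot be told apart.

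Against MEF, 13 of the 14 muscle-type isoforms were higher in muscle and 12 in transdifferentiated cells, and none was lower. The classes were set with earlier results of these data known, so this split is a description and not a test of the classes. A gene was called when its p-value from the quasi-likelihood test of edgeR, Benjamini-Hochberg adjusted over the 17400 genes tested, was under 0.05. In muscle against MEF, 23 of the 40 genes were higher and 4 lower, where 35.6% of all genes tested were called, 17.3% higher and 18.3% lower. In transdifferentiated cells against MEF, 20 were higher and 4 lower, with 27.3% of all genes called, 15.9% higher and 11.3% lower. The median log2 fold change of the 40 genes was 1.17 and 1.08 in the 2 comparisons, against 0.00 and 0.07 over all genes tested. The median of the muscle-type isoforms was 4.23 in muscle and 3.50 in transdifferentiated cells. The 11 counterpart isoforms had medians of -0.08 and -0.31, with 1 higher (Pfkp) and 3 lower in each comparison. The lower ones were Pgam1, Slc2a1 and Pygb in muscle and Pgam1, Eno1 and Pygb in transdifferentiated cells. Of the 9 enzymes without a pair, 6 were higher in muscle and 3 in transdifferentiated cells. Both comparisons use the same MEF libraries, so their values are set side by side and are not independent. Leaving out Muscle replicate 2 gave 15 higher and 1 lower in muscle. In transdifferentiated cells 1 gene was lower without MEF replicate 1 or Transdifferentiated replicate 1, and 2 were lower without Transdifferentiated replicate 2. A group left with 1 library is assumed to vary like the others.

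**Figure D1:**
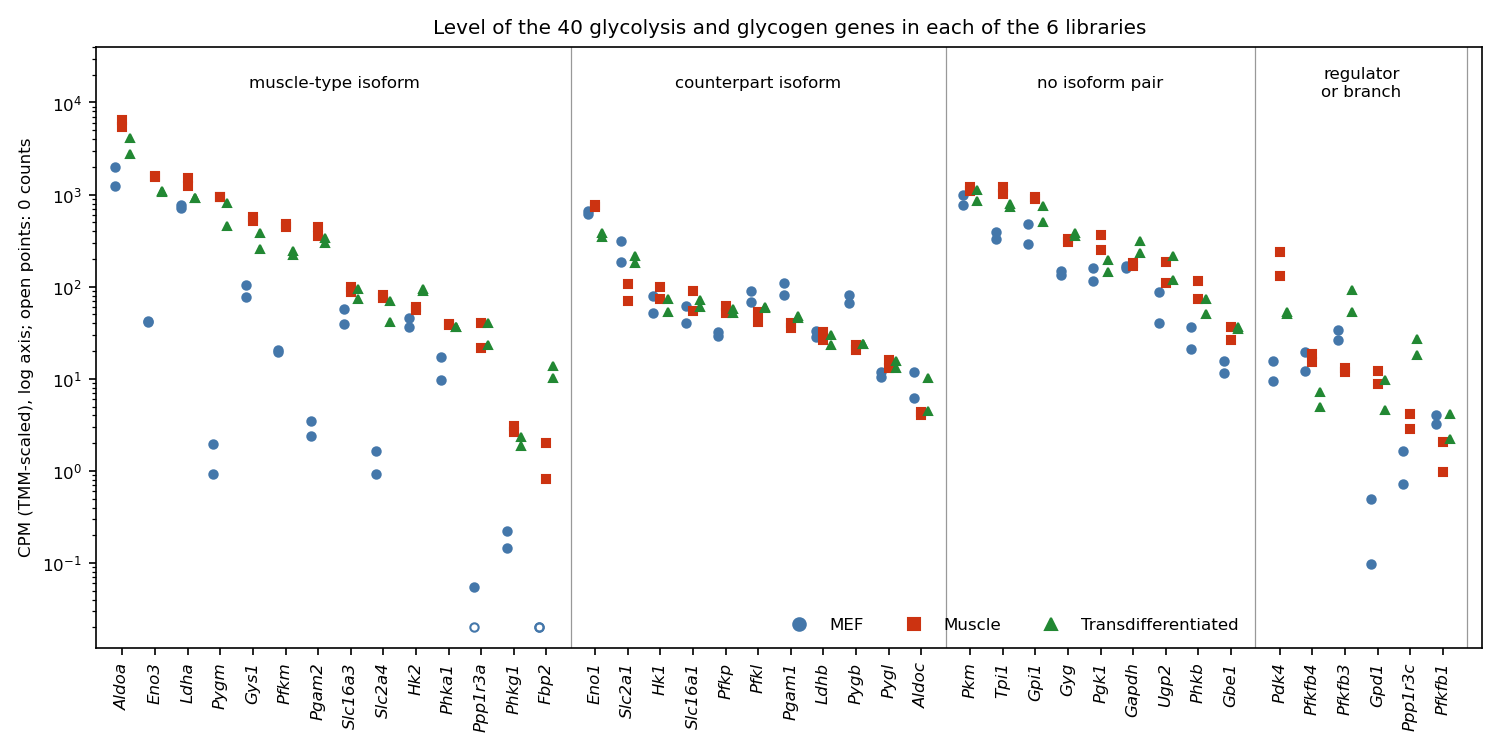
Level of each of the 40 genes in each library, in CPM on a log axis, with circles for MEF, squares for muscle and triangles for transdifferentiated cells; open points are libraries with 0 counts. Among the muscle-type isoforms Pygm, Pgam2, Slc2a4, Phkg1, Ppp1r3a and Fbp2 are at 3.52 CPM or less in the MEF libraries and above MEF in both other groups, while the 3 groups lie close together for most counterpart isoforms.

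The promoters of 3 isoform pairs are shown first, since these pairs, phosphoglycerate mutase, enolase and glycogen phosphorylase, held the widest changes of isoform in the 9 families. Each sequence is the 250 bases before an annotated RefSeq transcript start on GRCm38.p6, written 5′ to 3′ on the strand of the gene. Capitals mark CAGCTG and CACCTG on either strand, which are forms of the E-box that myogenic factors are known to bind, and matches to the MEF2 consensus. Pgam2 lies at chr11:5803797-5804046 (minus strand), Pgam1 at chr19:41911621-41911870, Eno3 at chr11:70656926-70657175, Eno1 at chr4:150236458-150236707, Pygm at chr19:6384158-6384407 and Pygb at chr2:150786546-150786795 (all plus strand).
Pgam2: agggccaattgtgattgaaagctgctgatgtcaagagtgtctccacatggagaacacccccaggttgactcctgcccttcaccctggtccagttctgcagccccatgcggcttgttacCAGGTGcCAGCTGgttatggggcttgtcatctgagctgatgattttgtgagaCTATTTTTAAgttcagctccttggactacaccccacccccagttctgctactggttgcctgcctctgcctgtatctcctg
Pgam1: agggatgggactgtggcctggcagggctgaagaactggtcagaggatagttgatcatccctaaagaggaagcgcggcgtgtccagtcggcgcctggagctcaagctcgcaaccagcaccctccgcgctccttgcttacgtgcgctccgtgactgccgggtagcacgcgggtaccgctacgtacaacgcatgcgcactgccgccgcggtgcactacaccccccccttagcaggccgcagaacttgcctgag
Eno3: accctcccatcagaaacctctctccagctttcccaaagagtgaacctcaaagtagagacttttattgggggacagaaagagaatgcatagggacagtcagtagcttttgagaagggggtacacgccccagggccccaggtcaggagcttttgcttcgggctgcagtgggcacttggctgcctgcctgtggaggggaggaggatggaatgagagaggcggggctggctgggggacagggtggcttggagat
Eno1: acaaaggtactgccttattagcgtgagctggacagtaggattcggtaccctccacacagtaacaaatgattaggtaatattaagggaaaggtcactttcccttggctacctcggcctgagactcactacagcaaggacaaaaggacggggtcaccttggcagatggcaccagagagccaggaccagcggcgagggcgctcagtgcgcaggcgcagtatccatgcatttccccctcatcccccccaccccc
Pygm: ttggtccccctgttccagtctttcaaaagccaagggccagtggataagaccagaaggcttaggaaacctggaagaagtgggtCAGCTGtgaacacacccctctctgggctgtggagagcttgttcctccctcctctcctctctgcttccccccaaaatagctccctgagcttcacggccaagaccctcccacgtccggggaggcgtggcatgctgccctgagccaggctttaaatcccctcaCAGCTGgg
Pygb: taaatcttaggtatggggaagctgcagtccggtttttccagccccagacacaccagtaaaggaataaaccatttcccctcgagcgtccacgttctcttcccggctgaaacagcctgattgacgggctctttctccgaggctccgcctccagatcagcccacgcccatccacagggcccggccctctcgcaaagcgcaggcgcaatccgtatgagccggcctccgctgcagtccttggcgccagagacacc
The Pgam2 window held 1 match to each of the 3 motifs, the Pygm window held 2 matches to CAGCTG, and the windows of Eno3, Pgam1, Eno1 and Pygb held none of these letters. Windows were found for 38 of the 40 genes, 54 in all, some of which overlap or belong to the same gene. Gpd1 and Slc2a4 were not among them. CAGCTG was in 6 of the 19 windows of muscle-type isoforms (Fbp2, Gys1, Pgam2, Phka1, Ppp1r3a and Pygm) and in 0 of the 15 of counterpart isoforms, 3 of the 11 of enzymes without a pair (Gpi1, Pkm and Ugp2) and 2 of the 9 of regulators, and 13.0% of all 32851 mouse windows of this length held it. CACCTG was in 6 of the 19, 0 of the 15, 2 of the 11 and 0 of the 9, against 17.2% of all windows, and the MEF2 consensus in 2 of the 19 (Pgam2 and Ppp1r3a), 0 of the 15, 0 of the 11 and 1 of the 9, against 2.92%. The letters ACGTG, the core of the hypoxia response element, were in 9 of the 19, 5 of the 15, 3 of the 11 and 3 of the 9, against 16.6% of all windows. TCAAGGTCA, known from oestrogen-related receptors, was in none of the 54, against 0.387%. A match describes the letters of the window and not a binding site.

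Of the glucose transporters, Slc2a4 was higher than MEF in both other groups and Slc2a1 was lower in muscle. Slc2a4 encodes GLUT4, the insulin-responsive glucose transporter of muscle and fat. Its level was 1.65 and 0.922 CPM in MEF, 74.9 and 82.1 CPM in muscle, and 41.2 and 70.5 CPM in transdifferentiated cells. MEF lay below the other groups without overlap. The gene rose by 5.93 ± 0.44 (SE) on the log2 scale in muscle and by 5.44 ± 0.43 in transdifferentiated cells (edgeR adjusted p = 1.8e-05 and 3.5e-05). Slc2a1, the GLUT1 transporter of most cells, was at 311.2 and 185 CPM in MEF, 108 and 69.8 CPM in muscle, and 179.8 and 213.6 CPM in transdifferentiated cells. It fell by 1.48 ± 0.33 in muscle (adjusted p = 0.00816) and was not called in transdifferentiated cells (-0.33 ± 0.33, adjusted p = 0.495). Without Muscle replicate 2 the call of Slc2a1 in muscle was lost (adjusted p = 0.0861). Per kilobase of exon, Slc2a4 made up 0.532% and 0.5% of the summed level of both transporters in MEF, 41.1% and 54.3% in muscle, with 18.8% and 25% in transdifferentiated cells. The share was thus higher in both muscle libraries than in either transdifferentiated library, although the Slc2a4 level itself was not called different between those groups (-0.49 ± 0.34, adjusted p = 0.5). The summed level was 71.1 ± 25.6 CPM per kilobase in MEF (SD, n = 2), 47.9 ± 6.22 in muscle and 72.2 ± 12.8 in transdifferentiated cells, with MEF overlapping transdifferentiated cells and both muscle libraries below both of MEF.

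Hexokinase traps glucose in the cell as glucose 6-phosphate, and Hk2 is its insulin-responsive muscle isoform. Hk2 was at 36.5 and 45.4 CPM in MEF, 60.6 and 56.1 CPM in muscle and 94.5 and 89.6 CPM in transdifferentiated cells, so that the 3 groups did not overlap and the transdifferentiated libraries were highest. Against MEF it rose in transdifferentiated cells (1.17 ± 0.25, edgeR adjusted p = 0.0082), was not called in muscle (0.51 ± 0.25, adjusted p = 0.142), and did not pass the test between the 2 (0.66 ± 0.25, adjusted p = 0.15). Without MEF replicate 1 the call of Hk2 was lost (adjusted p = 0.0522). Hk1, the hexokinase of most tissues, ranged from 52.4 to 98.3 CPM over the 6 libraries, with overlapping groups and no call. The Hk2 share of the summed level per kilobase was 39.8% and 55.4% in MEF, 46.8% and 52.2% in muscle, with 71.8% and 63.6% in transdifferentiated cells. The share overlapped between MEF and muscle, while the summed level of Hk1 and Hk2 did not, with means of 14.6 ± 1.15 CPM per kilobase for MEF (SD, n = 2), 19.8 ± 2.59 for muscle and 22.8 ± 1.11 for transdifferentiated cells. Gpi1, the next enzyme, was at 482.1 and 292.1 CPM in MEF, 904.2 and 934.7 CPM in muscle and 502.6 and 753.7 CPM in transdifferentiated cells. It rose in muscle (1.25 ± 0.31, adjusted p = 0.0136) but not past the threshold in transdifferentiated cells (0.70 ± 0.31, adjusted p = 0.132). The Gpi1 call did not survive leaving out MEF replicate 2 or either Muscle replicate 1 or Muscle replicate 2 (adjusted p = 0.0568, 0.0543 and 0.0672).

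Phosphofructokinase, the main control point of glycolysis, changed from mostly L type in MEF to mostly M type. Pfkm, the M subunit, was at 20.6 and 19.8 CPM in MEF, 476.1 and 444.4 CPM in muscle and 219.2 and 245.5 CPM in transdifferentiated cells. No group overlapped another, and the transdifferentiated libraries lay between the others. Pfkm rose by 4.51 ± 0.26 in muscle and by 3.52 ± 0.25 in transdifferentiated cells (edgeR adjusted p = 4.4e-06 and 1.6e-05). Of the 14 muscle-type isoforms it was the 1 called lower in transdifferentiated cells than in muscle (-0.99 ± 0.23, adjusted p = 0.0254). That call was lost without any 1 of the 4 libraries compared (adjusted p between 0.0701 and 0.181) and with a replicate block (0.0892). Pfkl, the liver type, was at 88.9 and 68.2 CPM in MEF, 53.1 and 41.2 CPM in muscle and 58.7 and 60.3 CPM in transdifferentiated cells, lower than MEF in all 4 libraries but not called (adjusted p = 0.0581 and 0.302). Pfkp, the platelet type, rose from 28.8 and 32.3 CPM in MEF to 51.4 and 61.6 CPM in muscle and 56.7 and 51.9 CPM in transdifferentiated cells (adjusted p = 0.0224 and 0.0373). Pfkp was the only counterpart isoform called higher, and its calls were lost in 5 and 10 of 14 alternative settings, with adjusted p up to 0.172 and 0.167, including every fit without 1 MEF or 1 Muscle library. Per kilobase, the Pfkm share was 28.5% and 31.9% in MEF, 92.4% and 92.5% in muscle, with 83.5% and 85.1% in transdifferentiated cells. The summed level of the 3 genes was 20.1 ± 2.2 CPM per kilobase in MEF (SD, n = 2), 149 ± 7.44 in muscle and 82.5 ± 5.49 in transdifferentiated cells.

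Aldolase, which cleaves the phosphorylated hexose, showed no change of isoform. Aldoa, the aldolase of muscle and red cells, was the most abundant of the 40 genes per kilobase in every group, and it made up 99.5% to 99.9% of the summed level with the brain type Aldoc over the 6 libraries. Its level was 2013 and 1237 CPM in MEF, 5406 and 6443 CPM in muscle and 2763 and 4143 CPM in transdifferentiated cells, again without overlap. Aldoa rose by 1.87 ± 0.32 in muscle and 1.09 ± 0.32 in transdifferentiated cells (edgeR adjusted p = 0.00225 and 0.0331). The second of these calls was lost in 6 of 14 settings, among them the fits without MEF replicate 2, Transdifferentiated replicate 2, Muscle replicate 1 or Muscle replicate 2 (adjusted p = 0.121, 0.166, 0.052 and 0.0528). Aldoc ranged from 4.01 to 11.8 CPM and was not called. Tpi1, which interconverts the products of aldolase, rose from 392.1 and 332.5 CPM in MEF to 1011 and 1196 CPM in muscle and 732.7 and 790.5 CPM in transdifferentiated cells (1.61 ± 0.24 and 1.07 ± 0.24, adjusted p = 0.0009 and 0.00951).

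Gapdh and Pgk1, which carry out the next steps, behaved differently from each other. Gapdh was at 160.7 and 166 CPM in MEF, 183 and 167.6 CPM in muscle and 230.4 and 310.9 CPM in transdifferentiated cells. Both transdifferentiated libraries were highest, but no comparison was called (0.10 ± 0.25, 0.73 ± 0.25 and 0.63 ± 0.25 for muscle against MEF and transdifferentiated cells against MEF and against muscle, edgeR adjusted p = 0.785, 0.0563 and 0.171). The count of this gene is uncertain: 22.8% of its 75-base stretches occur in 114 other annotated genes, and the 112 of these in the table held more counts than Gapdh itself in every library (14690 against 2920 in MEF replicate 1). Summed with them, the level was 830 CPM in MEF, 1340 CPM in muscle and 1070 CPM in transdifferentiated cells, so that the order of the groups changed and muscle was highest. That sum holds all counts of the other genes and does not give the level of Gapdh itself. Pgk1 rose in muscle, from 114 and 160.8 CPM in MEF to 251.4 and 367 CPM (1.17 ± 0.30, adjusted p = 0.0156). It was at 193.2 and 143.8 CPM in transdifferentiated cells, overlapping MEF. The call was lost without MEF replicate 1 or Muscle replicate 2 (adjusted p = 0.0662 and 0.142). Other annotated genes share 67.5% of the Pgk1 stretches, but the level summed with them, 142, 318 and 173 CPM in MEF, muscle and transdifferentiated cells, kept the order of the groups.

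Phosphoglycerate mutase, whose promoters are shown above, went from almost wholly the ubiquitous to almost wholly the muscle isoform. Pgam2, the muscle gene, was at 3.52 and 2.38 CPM in MEF, 353.3 and 447.3 CPM in muscle and 300.2 and 341.8 CPM in transdifferentiated cells. Transdifferentiated libraries were just below muscle and did not overlap it. It rose by 7.09 ± 0.35 in muscle, or 136-fold, and by 6.77 ± 0.35, or 109-fold, in transdifferentiated cells (edgeR adjusted p = 2.5e-06 and 4e-06). Pgam1, the ubiquitous gene, was at 109.6 and 80.3 CPM in MEF, 40.4 and 35.6 CPM in muscle and 46.1 and 48.0 CPM in transdifferentiated cells. It fell by 1.32 ± 0.26 and by 1.01 ± 0.26 (adjusted p = 0.00442 and 0.0199). In muscle the Pgam1 call was lost without Muscle replicate 2 (adjusted p = 0.0586), and in transdifferentiated cells without MEF replicate 1, Transdifferentiated replicate 1 or Transdifferentiated replicate 2 (0.121, 0.0827 and 0.0562) and with a replicate block (0.0561). The Pgam2 share of the summed level per kilobase was 7.05% and 6.53% in MEF, 95.4% and 96.7% in muscle, with 93.9% and 94.4% in transdifferentiated cells. The sum itself was 51.4 ± 11.4 CPM per kilobase in MEF (SD, n = 2), 496 ± 77.4 in muscle and 406 ± 35.8 in transdifferentiated cells. Stretches shared with 2 other annotated genes made up 40.6% of Pgam1, and none of Pgam2 was shared; summed with them the Pgam1 level was 104, 42.1 and 52.3 CPM.

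Enolase changed in the same direction, and here the ubiquitous isoform fell in transdifferentiated cells and not in muscle. Eno3, the beta enolase of muscle, was at 42.6 and 41.7 CPM in MEF, 1546 and 1585 CPM in muscle and 1066 and 1101 CPM in transdifferentiated cells. It rose by 5.21 ± 0.26 in muscle, or 37.1-fold, and by 4.68 ± 0.25, or 25.7-fold, in transdifferentiated cells (edgeR adjusted p = 2.2e-06 and 4.1e-06). Both transdifferentiated libraries were below muscle, a difference that was not called (-0.53 ± 0.22, adjusted p = 0.193). Eno1, the alpha enolase of most tissues, was at 664 and 611.6 CPM in MEF, 767.8 and 739.7 CPM in muscle and 346.4 and 386.7 CPM in transdifferentiated cells. The transdifferentiated libraries were thus lowest and the muscle libraries highest. Eno1 fell by 0.80 ± 0.22 against MEF and by 1.04 ± 0.22 against muscle (adjusted p = 0.0276 and 0.0194), and did not pass the test in muscle against MEF (0.24 ± 0.22, adjusted p = 0.441). Both calls were sensitive to single libraries. The call against MEF was lost in 8 of 14 settings, with adjusted p up to 0.158, including each fit without 1 library of any group, and the call against muscle was lost without any 1 of the 4 libraries compared (0.0578 to 0.13) and with a replicate block (0.0681). Stretches shared with 6 other annotated genes made up 65.4% of Eno1, and with the 5 of them in the table its level was 719 CPM in MEF, 811 CPM in muscle and 409 CPM in transdifferentiated cells. Per kilobase the Eno3 share was 16.6% and 17.4% in MEF, 86.2% and 86.9% in muscle, with 90.5% and 89.8% in transdifferentiated cells. That share depends on the gene length used: the mean over 2 libraries was 6.21%, 67.5% and 74.7% with coding length, in the same order of the groups.

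Pyruvate kinase and the lactate step changed less. Pkm, which makes pyruvate, was at 993.3 and 761 CPM in MEF, 1088 and 1196 CPM in muscle and 859 and 1109 CPM in transdifferentiated cells and was not called in any comparison. Its M1 form, used by adult muscle, and its M2 form, used by proliferating cells, are splice forms of this gene and cannot be told apart in counts per gene. Ldha, the lactate dehydrogenase subunit of fast muscle, rose from 761.7 and 721 CPM in MEF to 1225 and 1518 CPM in muscle (0.89 ± 0.23, edgeR adjusted p = 0.0155). It was at 908 and 907.8 CPM in transdifferentiated cells, above MEF in both libraries but not called (0.29 ± 0.23, adjusted p = 0.389). The Ldha call in muscle was lost without MEF replicate 2 or Muscle replicate 2 (adjusted p = 0.0635 and 0.146). Ldhb, the heart-type subunit, ranged from 23.5 to 33.1 CPM, with no call and overlapping groups. Per kilobase Ldha made up between 91.6% and 95.8% of the sum in every library.

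Lactate leaves the cell through monocarboxylate transporters. Slc16a3, the exporter MCT4 of glycolytic muscle, was at 57.5 and 39.1 CPM in MEF, 99.7 and 87.2 CPM in muscle and 73.0 and 93.7 CPM in transdifferentiated cells, above MEF in all 4 libraries. It rose in muscle (0.95 ± 0.28, edgeR adjusted p = 0.0283) and did not pass the test in transdifferentiated cells (0.79 ± 0.28, adjusted p = 0.0697). Its call was absent without Muscle replicate 1, Muscle replicate 2 or MEF replicate 2 (adjusted p = 0.153, 0.0917 and 0.153) and with a replicate block (0.0621). Slc16a1, the widely expressed MCT1, ranged from 40.3 to 90.9 CPM with overlapping groups and no call. The Slc16a3 share of their sum per kilobase ranged from 34.7% to 60.2%, also with overlap.

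**Figure D2:**
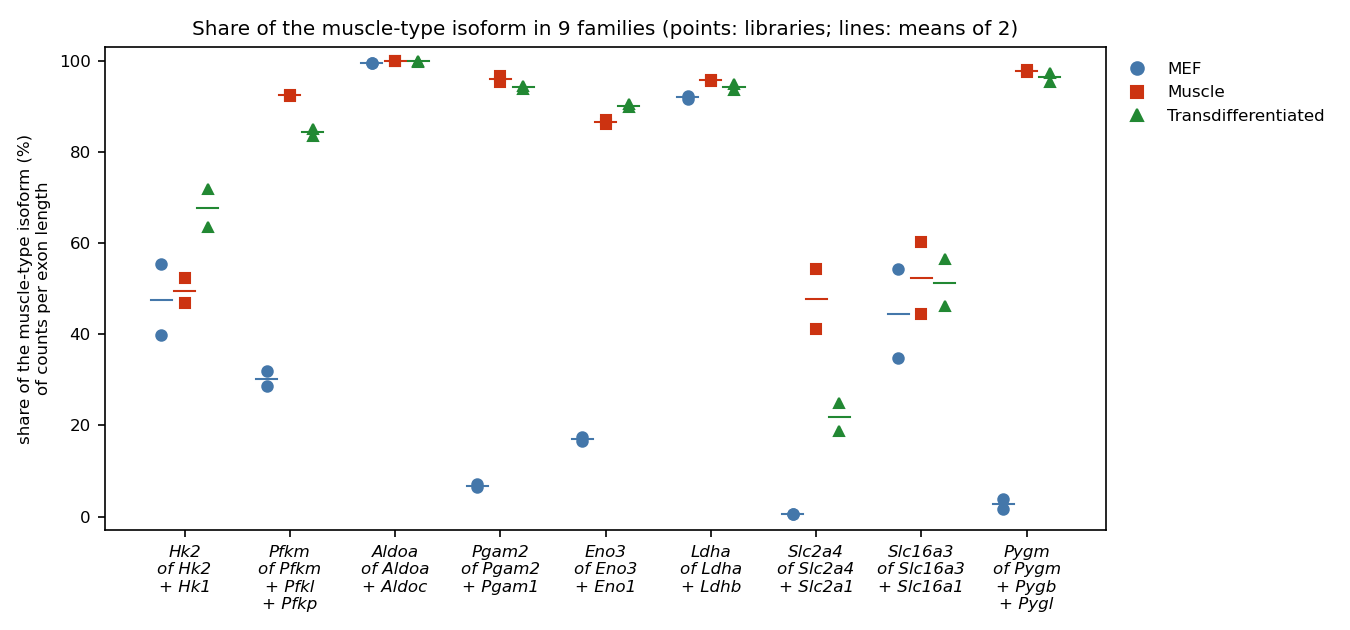
Share of the muscle-type isoform in the summed CPM per kilobase of exon of each of 9 families, in percent; points are libraries and lines are means of 2. Pfkm, Pgam2, Eno3 and Pygm lie between 1.57% and 31.9% in the MEF libraries and between 83.5% and 97.9% in the others, Aldoa and Ldha are high in all 6, Slc2a4 is intermediate in transdifferentiated cells, and Hk2 and Slc16a3 overlap between MEF and muscle.

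Over the 9 families and 3 comparisons, 27 differences of isoform share were tested with a two-sided exact permutation test over libraries. With 2 libraries against 2 this test cannot give a p under 0.333, the value of every difference without overlap (adjusted p = 0.391), so the shares are given as measured values. The share of Pfkm was 62.2 percentage points higher in muscle than in MEF, that of Pgam2 89.3, that of Eno3 69.5 and that of Pygm 95.1. In transdifferentiated cells the corresponding differences from the same MEF libraries were 54.0, 87.3, 73.2 and 93.7 points. Eno3 and Hk2 were the families in which both transdifferentiated libraries had a higher muscle-type share than both muscle libraries, by 3.62 and 18.2 points. In Pfkm, Slc2a4, Pgam2, Ldha, Pygm and Aldoa both were lower, by 8.18 points for Pfkm and 25.8 points for Slc2a4. These differences use exon length, and the shares of Pfkm, Eno3 and Hk2 changed with the length used.

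Glycogen breakdown turned to the muscle phosphorylase in both groups. Glycogen phosphorylase releases glucose 1-phosphate from glycogen, and Pygm is its muscle gene, lost in McArdle disease. Pygm was at 0.936 and 1.94 CPM in MEF, 939.9 and 935.6 CPM in muscle and 461 and 806.2 CPM in transdifferentiated cells. The transdifferentiated libraries were both lower than muscle and differed from each other more than the muscle libraries did. Pygm rose by 9.33 ± 0.51 on the log2 scale in muscle (652-fold) and by 8.76 ± 0.50 (441-fold) in transdifferentiated cells (edgeR adjusted p = 3.7e-06 and 6.1e-06). The difference between muscle and transdifferentiated cells was not called (-0.57 ± 0.35, adjusted p = 0.431). Pygb, the brain-type gene found in many tissues, was at 80.4 and 66 CPM in MEF, 23.2 and 20.5 CPM in muscle and 23.9 and 23.7 CPM in transdifferentiated cells. It fell by 1.74 ± 0.26 and by 1.62 ± 0.26 (adjusted p = 0.0009 and 0.00187), and these calls held in every alternative setting. Pygl, the liver gene, lay between 10.6 and 16 CPM in all libraries and was not called. Per kilobase the Pygm share was 1.57% and 3.76% in MEF, 97.6% and 97.9% in muscle, with 95.4% and 97.2% in transdifferentiated cells. The summed level of the 3 genes was 17.3 ± 1.75 CPM per kilobase in MEF (SD, n = 2), 298 ± 1.68 in muscle and 204 ± 76.1 in transdifferentiated cells.

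Phosphorylase kinase activates the phosphorylase, and its muscle subunits were higher too, but so was Phka2, a subunit outside the muscle-type class. Phka2 rose by 2.06 ± 0.30 in muscle and by 1.70 ± 0.29 in transdifferentiated cells (edgeR adjusted p = 0.0008 and 0.00297). Its mean level was 15.5 CPM in MEF, 64.8 CPM in muscle and 50.6 CPM in transdifferentiated cells. A change of isoform in this kinase was not tested. Phka1, the muscle regulatory alpha subunit, was at 9.80 and 17.4 CPM in MEF, 38 and 39.1 CPM in muscle and 36.7 and 36.9 CPM in transdifferentiated cells. It rose by 1.50 ± 0.32 and 1.43 ± 0.32 (edgeR adjusted p = 0.00609 and 0.0104), the second of which was lost without MEF replicate 1 (adjusted p = 0.0527). Phkg1, the muscle catalytic subunit, was low throughout, with 4 and 3 counts in MEF, 73 and 44 counts in muscle and 33 and 48 counts in transdifferentiated cells. Its level was higher in every muscle and transdifferentiated library than in MEF, and it rose by 3.95 ± 0.58 and 3.48 ± 0.58 (adjusted p = 0.00085 and 0.00246). Stretches shared with 4 other annotated genes, among them Sumf2 on the opposite strand, made up 24.2% of Phkg1. Summed with them the level was highest in MEF, at 31.8 CPM against 10.5 and 12.9 CPM in muscle and transdifferentiated cells. That sum holds all counts of the other genes, 651 and 563 in the MEF libraries, and so does not show the direction of Phkg1 itself. Phkb, the shared beta subunit, was at 20.9 and 36.8 CPM in MEF, 73.6 and 113.9 CPM in muscle and 74.1 and 50.6 CPM in transdifferentiated cells. It rose in muscle (1.70 ± 0.37, adjusted p = 0.00706), a call lost without Muscle replicate 2 (0.0587), and just missed the threshold in transdifferentiated cells (1.11 ± 0.37, adjusted p = 0.0523).

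**Figure D3:**
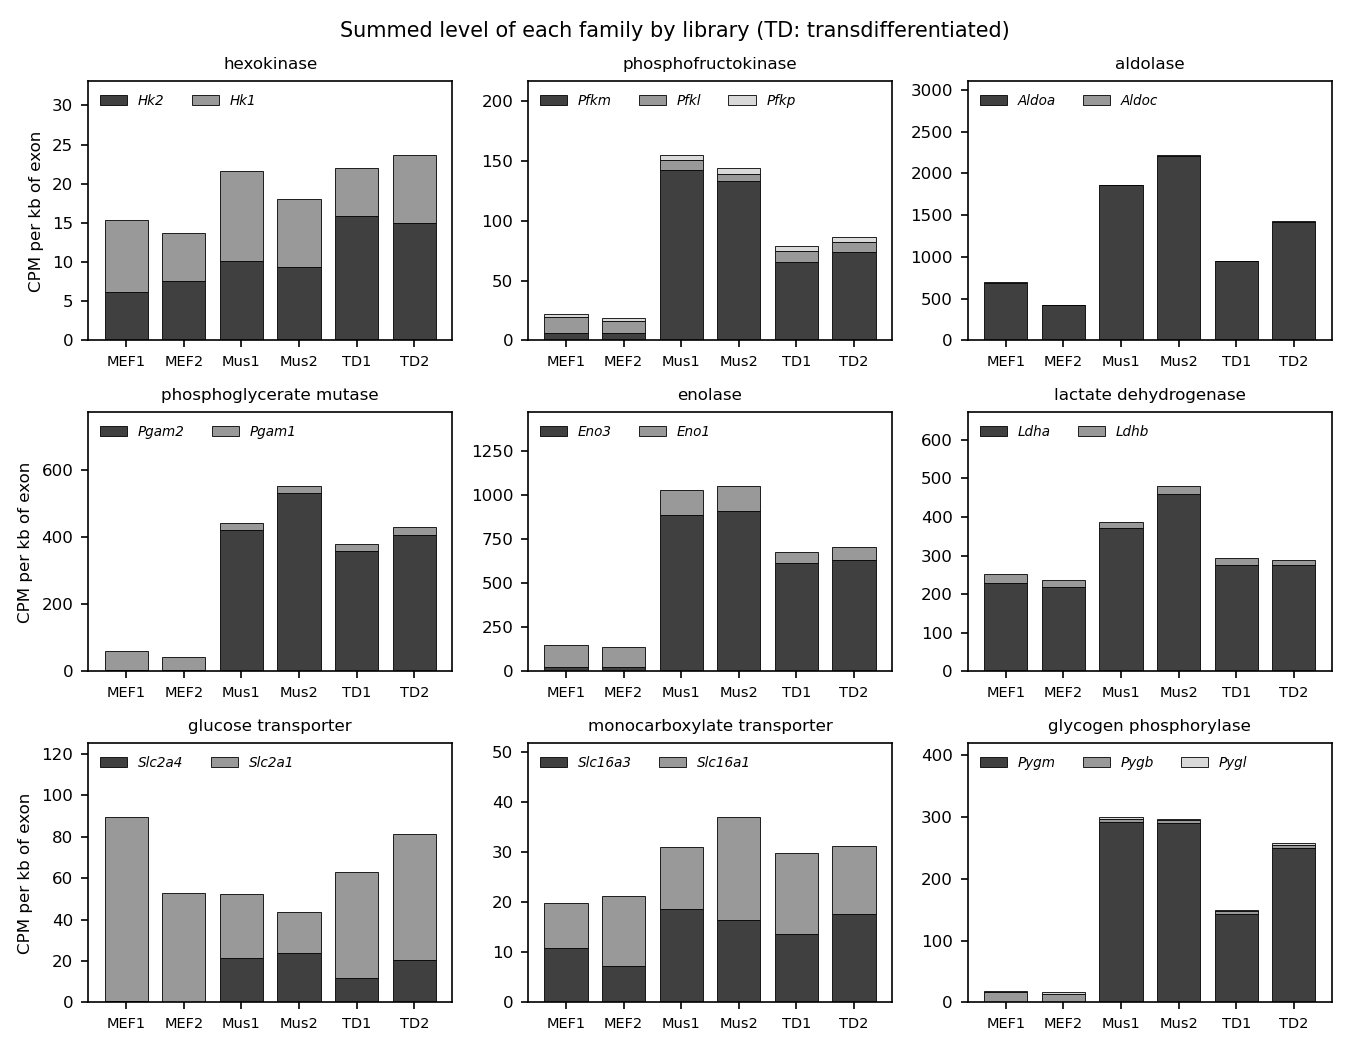
Summed level of each family in each library, in CPM per kilobase of exon, split by isoform with the muscle-type isoform darkest; each panel has its own axis from 0. The glycogen phosphorylase, phosphoglycerate mutase, enolase and phosphofructokinase sums are several times higher in muscle (Mus) and transdifferentiated (TD) libraries than in MEF, and the glucose transporter sum is not.

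Of 6 genes of glycogen synthesis, 5 were higher than MEF in each group and none was lower. Gys1, the muscle glycogen synthase, was at 105.4 and 77.4 CPM in MEF, 519.6 and 565.1 CPM in muscle and 258.7 and 384.8 CPM in transdifferentiated cells, with no overlap between groups. It rose by 2.57 ± 0.30 and 1.82 ± 0.29 (edgeR adjusted p = 0.00023 and 0.00198). Gyg, glycogenin, which primes the glycogen particle, was at 133.5 and 149.1 CPM in MEF, 307.9 and 327.5 CPM in muscle and 386.3 and 357.4 CPM in transdifferentiated cells, which were highest. It rose by 1.17 ± 0.23 and 1.40 ± 0.23 (adjusted p = 0.00388 and 0.00222). Gbe1, the branching enzyme, rose from 11.5 and 15.8 CPM in MEF to 26.5 and 36.4 CPM in muscle and 36.9 and 35.1 CPM in transdifferentiated cells (adjusted p = 0.0122 and 0.00831), the first call being lost without MEF replicate 1 or Muscle replicate 2 (0.0699 and 0.115). Ugp2, which makes UDP-glucose, had the widest spread of these enzymes within groups. It was at 40.4 and 88.6 CPM in MEF, 109 and 185.2 CPM in muscle and 213.4 and 118.9 CPM in transdifferentiated cells, above MEF in all 4 libraries but not called (adjusted p = 0.0685 and 0.0518).

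Among the glycogen-targeting subunits of protein phosphatase 1, which bring the phosphatase to glycogen and favour synthesis, Ppp1r3a and Ppp1r3c rose in both groups. Of the subunits outside the 40 genes, Ppp1r3b (-0.05, edgeR adjusted p = 0.951), Ppp1r3d (0.17, 0.754), Ppp1r3e (0.24, 0.819) and Ppp1r3f (-0.48, 0.544) were not called in muscle, while Ppp1r3b and Ppp1r3d rose in transdifferentiated cells (0.0167 and 0.0326), where Ppp1r3e and Ppp1r3f were not called (0.767 and 0.822). Ppp1r3a, the muscle subunit, had 1 count in the MEF libraries together, against 21.6 and 40.6 CPM in muscle and 40.6 and 23.6 CPM in transdifferentiated cells. Its ratio to MEF was 1140 (exact Poisson interval at 95% from 204 to 45000) in muscle and 1220 (218 to 48200) in transdifferentiated cells, where the intervals cover counting error only (edgeR adjusted p = 2.7e-05 and 3.5e-05). The muscle and transdifferentiated libraries overlapped. Ppp1r3c, a subunit found in several tissues, was at 0.715 and 1.65 CPM in MEF, 4.18 and 2.86 CPM in muscle and 27.3 and 18.3 CPM in transdifferentiated cells. It rose by 1.56 ± 0.47 in muscle and by 4.25 ± 0.49 in transdifferentiated cells (adjusted p = 0.031 and 0.00035) and was 6.49-fold higher in transdifferentiated cells than in muscle (2.69 ± 0.45, adjusted p = 0.00617). The call in muscle was lost without Muscle replicate 1, Muscle replicate 2 or MEF replicate 1 (adjusted p = 0.162, 0.052 and 0.135), with library totals alone (0.0553) and with a replicate block (0.0607), and the call against muscle without Muscle replicate 2 (0.0655).

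Enzymes that set the direction of flux had group patterns of their own. Fbp2, the muscle fructose bisphosphatase, reverses the phosphofructokinase step. It had 0 counts in both MEF libraries, 0.810 and 2.01 CPM in muscle and 13.9 and 10.1 CPM in transdifferentiated cells. A count of 0 allows up to 3 counts in a library, a mean of 0.155 CPM over the MEF libraries, so Fbp2 was at least 9.06-fold higher in muscle and at least 77.2-fold higher in transdifferentiated cells (edgeR adjusted p = 0.0021 and 0.00022). It was 8.51-fold higher in transdifferentiated cells than in muscle (3.11 ± 0.53, adjusted p = 0.00924), a call lost without Muscle replicate 1 (0.0554). The macrophage markers, 408.8 to 421.6 CPM in transdifferentiated cells and 1.82 to 3.62 CPM in muscle, moved in the same direction as Fbp2, Ppp1r3c and Pfkfb3 between these groups. Markers of other cells were higher in transdifferentiated cells than in muscle too: 5 of 8 for fibroblasts (Dcn by 2.81 and Pdgfra by 3.22), 4 of 5 tested for Schwann and neural cells and 2 of 5 tested for endothelium. Of 7 adipocyte markers, Fabp4 was the 1 tested and was higher. Every other adipocyte marker held 1 count or fewer in each transdifferentiated library. In MEF the macrophage markers summed to 36.6 to 49.6 CPM. There Fbp2 had no count, Ppp1r3c was at 0.715 and 1.65 CPM and Pfkfb3 at 33.7 and 26.5 CPM. The part of these markers' cells in the results was not tested.

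The Pfkfb genes make and remove the fructose bisphosphate that serves as the allosteric activator of phosphofructokinase. Pfkfb3, the isoform that most favours synthesis of this activator, was at 33.7 and 26.5 CPM in MEF, 13.0 and 12.0 CPM in muscle and 92.3 and 52.6 CPM in transdifferentiated cells. It was the 1 gene of the 40 called below MEF in muscle and above it in transdifferentiated cells (-1.26 ± 0.33 and 1.27 ± 0.32, edgeR adjusted p = 0.0156 and 0.0193). Its difference between transdifferentiated cells and muscle, 2.53 ± 0.34 or 5.79-fold (adjusted p = 0.00212), held in all 14 alternative settings. The call in muscle was lost without Muscle replicate 1 or Muscle replicate 2 (adjusted p = 0.0758 and 0.107), and that in transdifferentiated cells without MEF replicate 2 or Transdifferentiated replicate 1 (0.0635 and 0.136). Pfkfb4 went the other way, at 19.4 and 12.0 CPM in MEF, 18.7 and 15.1 CPM in muscle and 4.89 and 7.16 CPM in transdifferentiated cells. It fell by 1.38 ± 0.36 against MEF and by 1.49 ± 0.36 against muscle (adjusted p = 0.0223 and 0.0346). Both calls were lost without Transdifferentiated replicate 1 (adjusted p = 0.106 and 0.152), the first also without MEF replicate 1 (0.118), the second without Muscle replicate 1 or Muscle replicate 2 (0.197 and 0.109), and both with a replicate block (0.0551 and 0.0803). Pfkfb1, the liver and muscle isoform, lay between 0.973 and 4.10 CPM in all libraries and was not called.

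Gpd1, the cytosolic glycerol-phosphate dehydrogenase that reoxidises glycolytic NADH, was at 0.495 and 0.0971 CPM in MEF, 12.2 and 8.69 CPM in muscle and 4.55 and 9.67 CPM in transdifferentiated cells. The latter 2 groups overlapped. Gpd1 rose by 5.15 ± 0.69 and 4.60 ± 0.69 (edgeR adjusted p = 0.00057 and 0.00145). Pdk4 inhibits pyruvate dehydrogenase and is known to rise in muscle when fat is burned. It was at 9.52 and 15.4 CPM in MEF, 132 and 238 CPM in muscle and 53.5 and 50.2 CPM in transdifferentiated cells, so the transdifferentiated libraries lay between the others. Pdk4 rose by 3.89 ± 0.39 and 2.05 ± 0.36 (adjusted p = 0.00011 and 0.0034) and was lower in transdifferentiated cells than in muscle (-1.83 ± 0.35, adjusted p = 0.0125), a call lost without Muscle replicate 2 (0.11).

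Between transdifferentiated cells and muscle, 7 of the 40 genes were called. The share called higher was near that of all genes tested, and the share called lower was larger. Of these 7 calls, 1 held in every alternative setting. Of the 40, 3 were higher in transdifferentiated cells (Fbp2, Pfkfb3 and Ppp1r3c) and 4 were lower (Pfkm, Eno1, Pfkfb4 and Pdk4), where 10% of all genes tested were called, 7.58% higher and 2.46% lower (edgeR adjusted p under 0.05). Against the 4 lower calls, the fits without Muscle replicate 1, Muscle replicate 2, Transdifferentiated replicate 1 and Transdifferentiated replicate 2 gave 1, 0, 1 and 2 lower genes. The median log2 fold change was -0.16 over the 40 genes and -0.48 over the 14 muscle-type isoforms, of which 11 had values below 0, against 0.03 over all genes tested. In the 11 counterpart isoforms the median was -0.01. For most single genes the interval of the difference was wide: the SE was 0.22 to 0.53 on the log2 scale, so a missed threshold does not show equal levels. By library values, 16 genes in transdifferentiated cells lay between MEF and muscle without overlap and 16 overlapped at least 1 of these groups. Above both groups in both libraries were 6 (Hk2, Gapdh, Gyg, Fbp2, Pfkfb3 and Ppp1r3c), and 2 were below both (Eno1 and Pfkfb4).

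**Figure D4:**
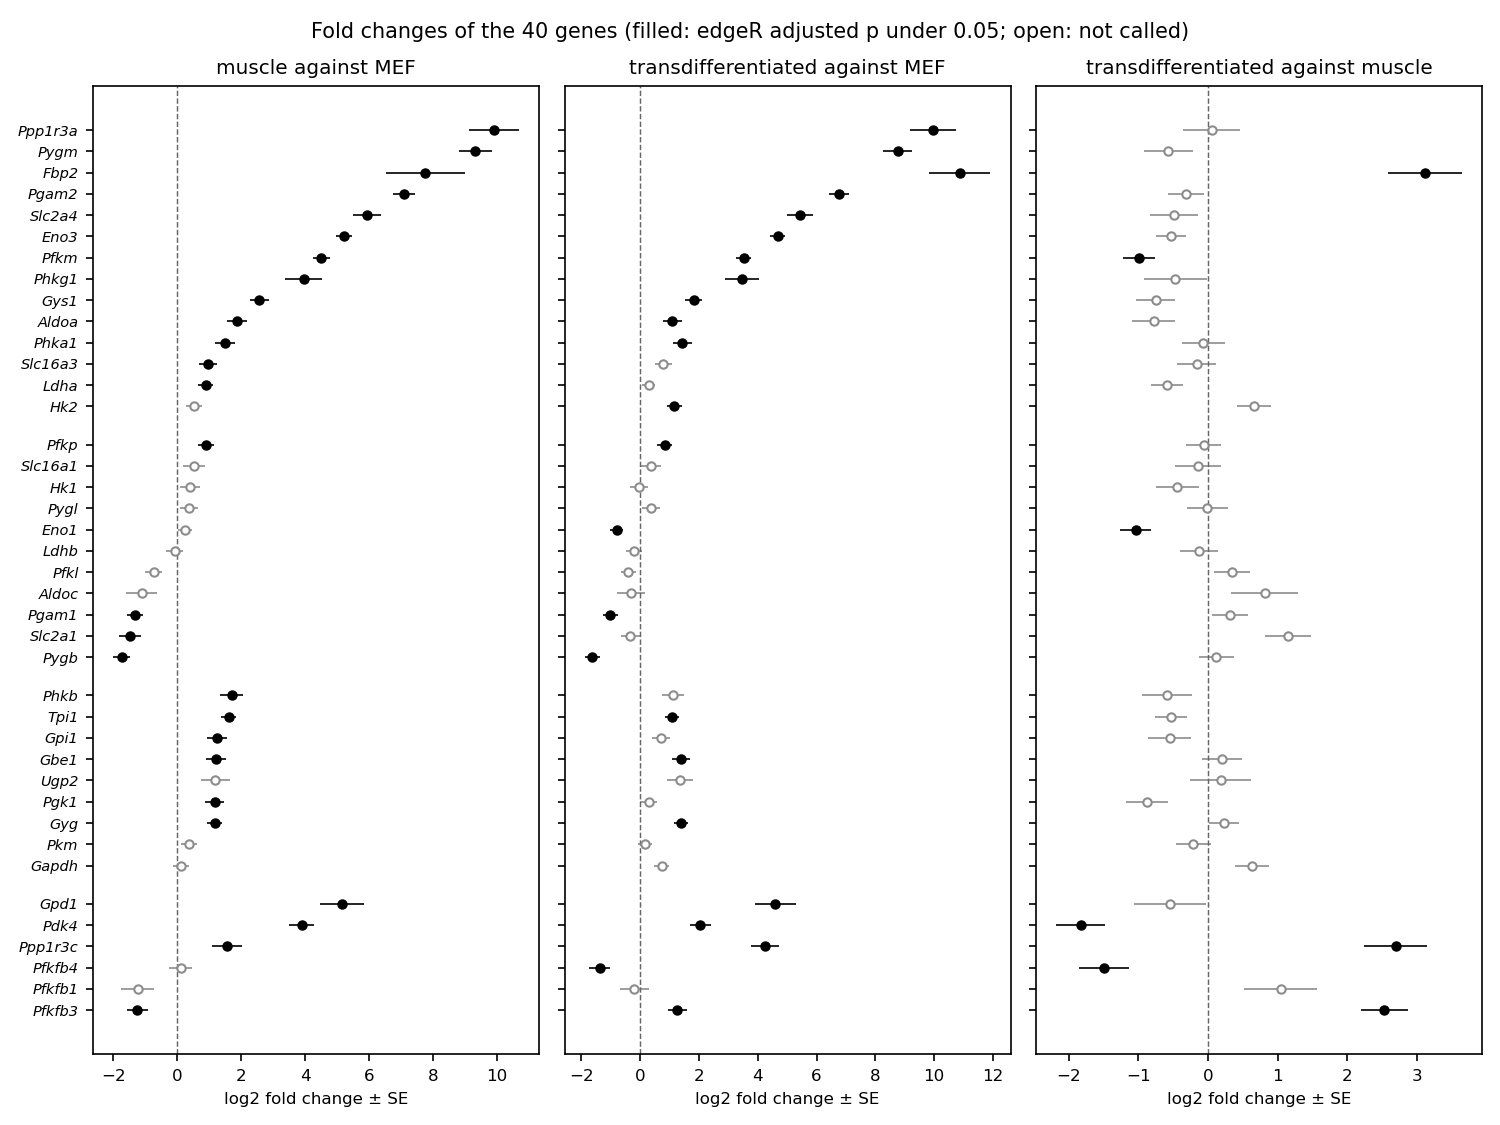
log2 fold change with its standard error of each of the 40 genes in the 3 comparisons, grouped from the top as muscle-type isoforms, counterpart isoforms, enzymes without an isoform pair, and regulators or branch enzymes; filled points passed an edgeR adjusted p of 0.05 and open points did not. In the first 2 panels 13 and 12 of the 14 muscle-type isoforms are filled and to the right of 0, and in the third 7 of the 40 genes are filled; the fitted values of Fbp2 and Ppp1r3a, with 0 and 1 counts in MEF, depend on the model's prior count.

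Other genes of these pathways were read from lists and counted by call, with the 2 smallest adjusted p per comparison named among the genes reported here. Against MEF, 17.3% of all genes tested were higher and 18.3% lower in muscle, with 15.9% and 11.3% in transdifferentiated cells. The lists are short, so a count near these shares says little about a pathway. Among glycolytic isoforms outside the 40 genes, Bpgm was higher than MEF in both muscle and transdifferentiated cells, and Adpgk was lower in both. Hk3, a hexokinase of white blood cells, was at 9 and 10 counts in MEF, 0 in both muscle libraries, and 25 and 44 counts in transdifferentiated cells. It was lower in muscle than in MEF and higher in transdifferentiated cells than in muscle (edgeR adjusted p = 0.00834 and 0.0049). In these comparisons the 8 macrophage markers moved with Hk3, as did some markers of other cells, among them Pdgfra and Dcn of fibroblasts. The part of these cells in the Hk3 level was not tested. Eno2, the neuronal enolase, was lower in transdifferentiated cells than in muscle (-1.21 ± 0.30, adjusted p = 0.0387). Of 19 tested glycogen genes, 5 were higher and 1 lower (Pgm2) in muscle, and 8 higher and 1 lower (Pgm2) in transdifferentiated cells. Epm2a, the glycogen phosphatase laforin, rose by 3.96 ± 0.42 and 3.84 ± 0.42 (adjusted p = 0.00016 and 0.00026), and Stbd1, a glycogen-binding protein, by 2.67 ± 0.30 and 2.61 ± 0.30 (0.0002 and 0.00033). The phosphorylase kinase subunit Phka2 and the phosphoglucomutase Pgm1 were also called higher than MEF in both groups (edgeR adjusted p = 0.0008 and 0.00297 for Phka2, 0.00088 and 0.019 for Pgm1). Ppp1r3b was the 1 glycogen gene higher in transdifferentiated cells than in muscle (1.90 ± 0.46, adjusted p = 0.0318).

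Of 16 tested genes of glucose and monocarboxylate transport, 6 were higher and 2 lower than MEF in each group. The shares over all genes tested were 17.3% higher and 18.3% lower in muscle, and 15.9% and 11.3% in transdifferentiated cells. Tbc1d4, which governs the movement of GLUT4 vesicles, rose by 4.25 in muscle and 3.74 in transdifferentiated cells (edgeR adjusted p = 9.3e-05 and 0.00026), while the MCT chaperone Emb fell by 3.33 and 1.93 (8.9e-05 and 0.00192). The 4 higher in transdifferentiated cells than in muscle were Slc16a6, Emb, Slc2a3 and Slc16a7. Slc16a6, another transporter of this family, rose in transdifferentiated cells against MEF (3.24, adjusted p = 0.00103). The other lower gene was Slc2a13 in muscle and Slc2a10 in transdifferentiated cells. Of 13 genes of pyruvate entry into mitochondria, 8 were higher in muscle, and 7 were higher and 1 lower (Pdp2) in transdifferentiated cells. Pdp1, a phosphatase that activates pyruvate dehydrogenase, rose by 2.49 and 1.86 (adjusted p = 0.00027 and 0.00179), and Pdhb, a subunit of the enzyme, by 2.33 and 1.20 (0.00045 and 0.0153). In transdifferentiated cells the smallest adjusted p were those of Pdhx, another subunit, and of the kinase Pdk1, which rose by 1.78 and 1.93 (0.00152 and 0.00164). Pdhb was the 1 gene of this list lower in transdifferentiated cells than in muscle (-1.13, adjusted p = 0.0404). Of 9 NADH shuttle genes, 5 were higher and 2 lower in muscle, and 3 higher and 2 lower in transdifferentiated cells. Gpd1l, Mdh1 and Slc25a12, a carrier of aspartate and glutamate, were higher in both, and Got1 and Slc25a11 in muscle. Gpd2, the mitochondrial partner of Gpd1, fell by 1.31 and 2.41 (adjusted p = 0.00961 and 0.00073), and Slc25a13, the second aspartate and glutamate carrier, by 2.45 and 1.78 (0.00112 and 0.00678).

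The pentose phosphate pathway, which branches from the first product of glycolysis, had calls in the lower direction alone: 5 of its 10 genes were lower than MEF in each group and none was higher. Among all genes tested, 18.3% were lower and 17.3% higher in muscle, and 11.3% and 15.9% in transdifferentiated cells. Tkt, transketolase, was at 352.3 CPM in MEF, 39.2 CPM in muscle and 60.7 CPM in transdifferentiated cells on average, and fell by 3.17 and 2.54 (edgeR adjusted p = 9.9e-05 and 0.00043). G6pdx, its entry enzyme, fell by 2.47 and 2.30 (0.00016 and 0.00033). Pgd and H6pd were lower in both groups too, Prps2 in muscle and Rpe in transdifferentiated cells. Of 12 hypoxia-induced genes outside glycolysis, 4 were higher and 2 lower in muscle, and 7 higher and 1 lower in transdifferentiated cells. Egln3, an oxygen-sensing prolyl hydroxylase, rose by 4.30 and 4.49 (adjusted p = 6.3e-06 and 6.9e-06), and Adm, adrenomedullin, fell by 4.88 and 2.59 (2.8e-05 and 0.00079). Bnip3, Car9 and Egln1 were the other 3 called higher in muscle, and Ndrg1 the other called lower. Adm, Ndrg1 and Ankrd37 were higher in transdifferentiated cells than in muscle. Of 18 upstream regulators, 10 were higher and 2 lower (Hif1a and Epas1) in muscle, and 8 were higher in transdifferentiated cells. Prkag3, the AMP kinase subunit of glycolytic muscle, rose by 8.63 and 7.93 and Mef2c by 6.49 and 6.24. Ppargc1a (-2.26, adjusted p = 0.0124) and Prkaa2 (-1.05, 0.0495) were lower in transdifferentiated cells than in muscle.

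Differences between replicates followed the base composition of the genes. Over 17042 genes, the Spearman correlation of the replicate 2 minus replicate 1 difference with GC content was -0.624 for MEF, -0.421 for muscle and 0.612 for transdifferentiated cells, a description across genes that share libraries. Among the 40 genes, Ugp2 (39.1% GC) was 2.19 times as high in replicate 2 as in replicate 1 in MEF and 0.557 times in transdifferentiated cells, while Aldoa (56.9% GC) was 0.614 and 1.5 times as high. With an offset for GC content, an alternative chosen after seeing the data, 25 were higher and 6 lower in muscle against MEF, 25 and 4 in transdifferentiated cells against MEF, and 6 and 7 between the latter and muscle. In the authors' deposited table, which lists 2806 genes and does not name its contrast, 11 of the 40 genes appear (Pfkm, Pgam2, Eno3, Slc2a4, Pygm, Phkg1, Gys1, Fbp2, Ppp1r3a, Gpd1 and Pdk4). All 11 have a negative log2 fold change in the authors' deposited table, opposite in sign to muscle minus MEF here, from -2.39 for Gys1 to -9.13 for Pygm. The smallest absolute log2 fold change of any gene listed there is 2, so genes with smaller changes are absent from it.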

How the data were processed

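Reads were counted per gene symbol by the authors, who deposited raw counts for 6 libraries; the submitters' processing notes name the build mm10 and list HISAT2 2.1.0, Trim Galore 0.6.0, DESeq2 1.26.0 and featureCounts 1.6.2, with no roles given. Per the labels' protocols, libraries were made with a SENSE mRNA-seq kit and read as 75-base single ends. Neither the annotation nor the use of strand in counting is stated there. A deposited table of the authors gives log2 fold changes, p-values and a mean normalised signal per gene; the signal was not used here.

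Counts were tested in R 4.3.3 with edgeR 4.0.16: filterByExpr by group, TMM scaling and 1 quasi-likelihood fit of all 6 libraries with group as its term (3 residual degrees of freedom, biological coefficient of variation 27.3%), adjusted over 17400 genes and called at 0.05. Fold changes are log2 with SE, and levels are TMM-scaled CPM, divided by exon length from GENCODE M21 where genes are compared. Alternatives were other scalings, filters and groups, DESeq2 1.42.0, a replicate block, leaving out each library and, chosen after seeing the data, an offset for GC content. Promoters came from RefSeq on GRCm38.p6. All 40 genes are named; from the other lists, the 2 smallest adjusted p per comparison and genes in counts of 5 or fewer; from the marker lists, the most abundant. The genes, lists and classes were chosen with earlier results of these data known. Protein sequences were not used here, and some genes of these lists are counted but not reported by name.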

Additional observations from a re-analysis of the deposited data

How the results depend on the processing

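Of the calls among the 40 genes, 16 of 27 in muscle against MEF, 16 of 24 in transdifferentiated cells against MEF and 1 of 7 between transdifferentiated cells and muscle (Pfkfb3) held in every alternative in which the gene was tested, and no called gene changed sign. Leaving out 1 library at a time gave 15 to 24 higher and 1 to 6 lower in muscle against MEF, 18 to 20 higher and 1 to 3 lower in transdifferentiated cells against MEF, and 2 to 4 higher and 0 to 4 lower between transdifferentiated cells and muscle. Over all genes these ranges were 1980 to 3223 higher and 1778 to 3445 lower, 2258 to 2394 higher and 1280 to 1926 lower, and 589 to 1616 higher and 140 to 605 lower. Requiring 10 CPM in 2 libraries left 1914 higher and 2094 lower in muscle, 1667 higher in transdifferentiated cells against MEF, and 552 higher and 212 lower against muscle, with fewer genes tested. With no filter 670 were lower in transdifferentiated cells than in muscle. With the GC offset 3205 were lower in transdifferentiated cells than in MEF, and 2088 were higher and 1084 lower than in muscle, as were 6 and 7 of the 40 genes; the cause was not tested. Replicate numbers were not used as a pairing in the main fit. Deviations of same-numbered libraries correlated at 0.314 for MEF and muscle, -0.529 for MEF and transdifferentiated cells and -0.291 for muscle and transdifferentiated cells. Replicate differences also followed GC content, so these correlations cannot decide whether libraries were paired. With the replicate block 1 of the 40 genes was lower in transdifferentiated cells against MEF and 1 against muscle, where 265 of all genes were lower. The log2 fold changes that changed sign were those of genes that were not called. Leaving out 1 library at a time, they ranged from -0.21 to 0.05 for Ldhb and from -0.20 to 0.49 for Pfkfb4 in muscle against MEF. They ranged from -0.34 to 0.27 for Hk1, from -1.05 to 0.22 for Aldoc, from -0.06 to 0.37 for Pkm, from -0.67 to 0.08 for Slc2a1 and from -0.69 to 0.15 for Pfkfb1 in transdifferentiated cells against MEF. The values went from -0.18 to 0.07 for Pfkp, from -0.32 to 0.02 for Ldhb, from -0.47 to 0.25 for Slc16a1, from -0.36 to 0.01 for Slc16a3, from -0.16 to 0.15 for Pygl, from -0.02 to 0.44 for Gbe1, from -0.30 to 0.60 for Ugp2 and from -0.39 to 0.57 for Ppp1r3a between transdifferentiated cells and muscle. In this last comparison library totals alone gave 0.03 for Pfkp, 0.07 for Pygl and 0.02 for Phka1, 10 CPM in 2 libraries gave 0.02 for Pygl, and the GC offset gave -0.03 for Ppp1r3a. The cause of these changes was not tested. With 2 libraries a group, low counts in MEF (Fbp2, Ppp1r3a, Phkg1 and Gpd1) limit how precisely their folds are known.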
